A study of Mus musculus with 25 samples.

Results

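The small proline-rich (SPRR) genes were examined by symbol in whole-esophagus RNA from mice with an activated NRF2 pathway in squamous cells. The 9 genes chosen were Sprr1a, Sprr1b, Sprr2b, Sprr2d, Sprr2e, Sprr2f, Sprr2h, Sprr3 and Sprr4. Of these, 8 had a row in both processed tables, which list 21106 genes for pups and 19942 for adults, and all 8 passed the filter on low values; Sprr4 was not analysed here. The study asked how a cancer-derived NRF2 mutation acts in the squamous epithelium and how it compares with loss of KEAP1, the adaptor that marks NRF2 for degradation.

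The pups were 7 to 10 days old, and their mutations were made with K5Cre, a Cre recombinase driven from the keratin 5 gene's promoter in squamous cells. They were NRF2 L30F homozygotes (leucine replaced by phenylalanine at codon 30), KEAP1 flox/flox mice and wild type, with 3 libraries each. The adults were 6 to 9 weeks old and were sampled 1 week after tamoxifen (100 µg per g body weight), which switches on K5CreERT2. They were L30F heterozygotes, L30F homozygotes, KEAP1 flox/flox mice and wild type, with 4 libraries each. The sample titles name the same driver for wild type as for the mutants, but do not say whether wild-type mice carried it. The labels do not say that every library came from its own animal, and the p-values below reflect library-to-library spread. The age, the driver and the time since recombination differ together between the experiments and cannot be told apart.

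SPRR proteins are precursors of the cornified envelope, the protein shell that transglutaminases cross-link under the membrane of terminally differentiating squamous cells. Their genes lie in the epidermal differentiation complex beside loricrin (Lor), involucrin (Ivl) and the late cornified envelope (LCE) genes. SPRR3, also called esophagin, is an abundant SPRR of the healthy esophagus, while SPRR1 and SPRR2 are known as genes that stressed or inflamed epithelia induce. In mouse keratinocytes, Sprr2d is also known as a gene that NRF2 can activate.

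Promoter sequences are shown because the 5 SPRR2 genes, which rose together, share sequence elements near their starts. Sprr1a, which shares an element with them, and Sprr3, which shares none, are shown for comparison. Both were called higher in both pup mutants and lower in adult homozygotes, though the adult Sprr1a call ended when single libraries were left out. Of other Sprr genes with both shared elements, Sprr2i rose and Sprr2k fell in adult homozygotes. Whether these elements bear on the changes was not tested. The sequences are the 250 bases before the RefSeq start on GRCm38.p6, a different build from the GRCm39 of the authors' quantification. Each reads 5′ to 3′ on the gene's strand. Capitals mark matches, on either strand, to TGANTCA (the AP-1 site, to which FOS and JUN proteins bind), ATGCAAAT (the octamer of POU factors) or TGACNNNGC (the core of the antioxidant response element of NRF2). The windows are chr3:92316455-92316704 for Sprr2b, chr3:92338890-92339139 for Sprr2d, chr3:92351893-92352142 for Sprr2e, chr3:92364937-92365186 for Sprr2f and chr3:92385435-92385684 for Sprr2h, all on the plus strand. Those of Sprr1a, chr3:92485882-92486131, and Sprr3, chr3:92458721-92458970, are on the minus strand.
Sprr2b: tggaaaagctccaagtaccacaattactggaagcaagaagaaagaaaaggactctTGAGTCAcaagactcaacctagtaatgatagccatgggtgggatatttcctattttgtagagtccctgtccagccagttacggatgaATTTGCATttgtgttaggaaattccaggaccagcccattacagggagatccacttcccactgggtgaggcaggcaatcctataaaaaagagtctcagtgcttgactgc
Sprr2d: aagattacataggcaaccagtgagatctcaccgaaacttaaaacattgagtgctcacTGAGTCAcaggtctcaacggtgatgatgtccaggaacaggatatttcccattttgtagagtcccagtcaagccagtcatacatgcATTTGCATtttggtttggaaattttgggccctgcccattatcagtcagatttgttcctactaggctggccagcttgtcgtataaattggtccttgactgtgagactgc
Sprr2e: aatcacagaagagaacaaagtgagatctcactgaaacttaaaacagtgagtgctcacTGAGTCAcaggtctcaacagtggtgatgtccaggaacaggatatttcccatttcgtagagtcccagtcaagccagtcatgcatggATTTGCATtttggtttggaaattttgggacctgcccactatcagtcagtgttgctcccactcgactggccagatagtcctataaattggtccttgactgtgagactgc
Sprr2f: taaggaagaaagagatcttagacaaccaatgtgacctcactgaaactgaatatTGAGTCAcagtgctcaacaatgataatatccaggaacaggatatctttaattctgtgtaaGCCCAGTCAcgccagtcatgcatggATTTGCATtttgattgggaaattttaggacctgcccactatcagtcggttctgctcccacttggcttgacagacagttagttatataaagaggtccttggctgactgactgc
Sprr2h: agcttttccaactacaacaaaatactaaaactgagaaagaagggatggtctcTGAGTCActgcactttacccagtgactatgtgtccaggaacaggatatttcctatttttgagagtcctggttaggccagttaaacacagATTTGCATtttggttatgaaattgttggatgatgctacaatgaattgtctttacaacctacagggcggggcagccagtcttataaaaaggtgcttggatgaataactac
Sprr1a: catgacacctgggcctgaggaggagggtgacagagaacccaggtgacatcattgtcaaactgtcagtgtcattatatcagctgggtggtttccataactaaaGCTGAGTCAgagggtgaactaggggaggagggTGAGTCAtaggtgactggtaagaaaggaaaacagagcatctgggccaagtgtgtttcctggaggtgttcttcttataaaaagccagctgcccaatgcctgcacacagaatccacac
Sprr3: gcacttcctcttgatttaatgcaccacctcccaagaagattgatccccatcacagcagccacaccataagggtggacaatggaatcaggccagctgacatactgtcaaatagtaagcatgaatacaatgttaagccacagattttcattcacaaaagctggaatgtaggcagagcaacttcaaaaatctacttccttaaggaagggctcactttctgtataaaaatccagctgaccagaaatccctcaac

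In the 5 Sprr2 windows a TGAGTCA lay between 187 and 198 bases before the start, and an ATTTGCAT, the octamer read on the other strand, between 101 and 112 bases before it. Sprr1a held 2 TGAGTCA, and Sprr1b, whose window is not printed, held TGAATCA. In all, 7 of the 9 members had a TGANTCA match, against 6.75% of 32851 RefSeq promoter windows of the same length. The octamer was in 5 of 9, against 1.6% of promoters, and TGACNNNGC in 2 of 9 (Sprr2f and Sprr1a), against 10.2%. The TGACNNNGC match of Sprr1a overlapped one of its TGAGTCA sites. The windows of Sprr3 and Sprr4 held none of these motifs. The motifs were chosen with the promoters in view, and the Sprr2 windows are copies of a common sequence, so the counts describe these letters and show no binding.

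The Sprr2 genes are also alike in their transcripts, which bears on how reads were shared among them. In GENCODE vM21 transcripts, 31.9% of the 31-base words of Sprr2b recur in another gene, mostly in Sprr2a1, and 21.1% of those of Sprr2e recur, mostly in Sprr2i. The share was 10.3% for Sprr2d, 7.94% for Sprr2f and 3.0% for Sprr2h. No 31-base word of Sprr1a, Sprr1b or Sprr3 was shared. With 100-base words the share was 1.09% for Sprr2e, 0.438% for Sprr2b and 0 for the other members. In the sources used here no read length was given.

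Summed over genes, a pup library had 18.8 to 19.7 M reads. Adult depth differed by genotype, with 12.8 to 16.9 M reads in heterozygotes, 10.9 to 11.6 M in homozygotes, 22.5 to 31.3 M in KEAP1-deficient mice and 27.5 to 32.3 M in wild type. Nqo1, a classic NRF2 target, averaged 9989 normalised counts in homozygous pups, 12119 in KEAP1-deficient pups and 76.7 in wild-type pups. In adults it averaged 4202 in heterozygotes, 6304 in homozygotes, 5950 in KEAP1-deficient mice and 1088 in wild type, and Keap1 fell by 0.46 in KEAP1-deficient pups and by 0.60 in KEAP1-deficient adults on the log2 scale. Nfe2l2, the NRF2 gene, fell by 1.98 in adult homozygotes. All basal and suprabasal squamous markers (Krt5, Krt14, Krt15, Trp63, Krt4, Krt13, Krt78 and Tgm3) were listed and none was at 0 throughout a group, as was the case for all 6 striated muscle markers.

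**Figure D1:**
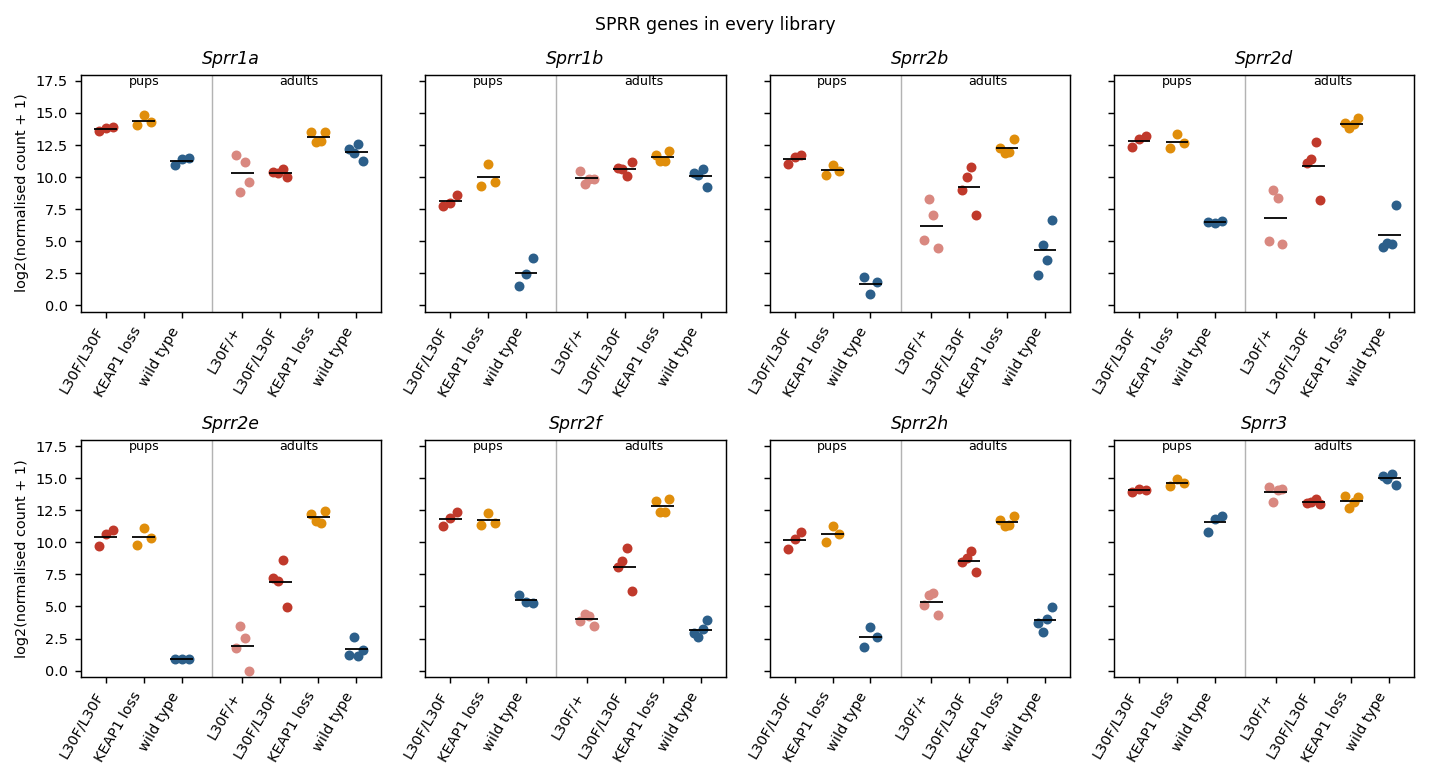
Each panel plots 1 SPRR gene, with 1 point a library as log2(normalised count + 1) and a bar at the group mean; pups are left of the grey line and adults right of it. All 8 genes were higher in every mutant pup library than in every wild-type pup library, while adult Sprr3 was lower in every mutant library than in every wild-type library.

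In pups the 8 members analysed were higher in both mutant genotypes. All 8 members were called higher in L30F homozygotes (22.0% of 21007 genes tested were called higher, 39.2% in either direction) and all 8 in KEAP1-deficient pups (26.3% higher, 49.5% in either direction). The median log2 fold change of the members was 6.32 in homozygotes and 6.85 in KEAP1-deficient pups, against -0.03 and -0.05 over all genes tested. Fold changes are differences of log2(normalised count + 1) from a limma fit, which understates low genes, and a call is a Benjamini-Hochberg adjusted p under 0.05 over all genes. The 8 calls in each genotype held in every fit that left out 1 library.

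The SPRR2 members, envelope precursors that bridge other envelope proteins, all rose, and wild-type pups held 20 reads or fewer of Sprr2b, Sprr2e and Sprr2h each. Sprr2e (ENSMUSG00000055030) had 825, 1636 and 1962 normalised counts in homozygotes, 910, 2219 and 1302 in KEAP1-deficient pups, and 0.89, 0.89 and 0.856 in wild type, where each library held 1 read. The groups were far apart, with no mutant library near wild type. From the summed reads, the ratio to wild type was 1670 in homozygotes (95% counting interval 573 to 8120) and 1670 in KEAP1-deficient pups (570 to 8090), counting error only. These intervals do not cover how reads were shared among the Sprr2 genes. The fitted log2 fold change was 9.53 in homozygotes (SE 0.37, adjusted p = 9.7e-08) and 9.52 in KEAP1-deficient pups (SE 0.37, adjusted p = 7.5e-08).

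Sprr2b (ENSMUSG00000050092) had 2039, 3108 and 3435 normalised counts in homozygotes, 1155, 1933 and 1458 in KEAP1-deficient pups, and 3.56, 0.89 and 2.57 in wild type. All homozygote libraries lay above the KEAP1-deficient ones, which lay above wild type. The ratio to wild type, which held 8 reads in all, was 1220 in homozygotes (interval 619 to 2830) and 644 in KEAP1-deficient pups (326 to 1490). The log2 fold change was 9.80 in homozygotes (SE 0.34, adjusted p = 7e-08) and 8.89 in KEAP1-deficient pups (SE 0.34, adjusted p = 9.5e-08).

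Sprr2h (ENSMUSG00000046259) had 729, 1249 and 1785 normalised counts in homozygotes, 1042, 2484 and 1595 in KEAP1-deficient pups, and 2.67, 9.78 and 5.13 in wild type. Its log2 fold change was 7.56 in homozygotes (SE 0.49, adjusted p = 8.9e-06) and 8.01 in KEAP1-deficient pups (SE 0.49, adjusted p = 4.4e-06). The wild-type libraries held 20 reads of it in all.

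Sprr2d (ENSMUSG00000042212) was readily counted in wild type as well. It had 5078, 7927 and 9292 normalised counts in homozygotes, 4819, 10380 and 6411 in KEAP1-deficient pups, and 91.7, 85.4 and 92.4 in wild type. Its log2 fold change was 6.31 in homozygotes (SE 0.30, adjusted p = 1.2e-06), against 6.24 in KEAP1-deficient pups (SE 0.30, adjusted p = 9e-07). Sprr2f (ENSMUSG00000050635) had 2460, 3803 and 5247 normalised counts in homozygotes, 2636, 5136 and 2990 in KEAP1-deficient pups, and 57.0, 40.9 and 37.6 in wild type. Its log2 fold change, close to that of Sprr2d, was 6.33 in homozygotes and 6.24 in KEAP1-deficient pups (SE 0.34 each).

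The SPRR1 genes, which encode cornifins, rose as well. Sprr1b (ENSMUSG00000048455) had 218, 252 and 382 normalised counts in homozygotes, 643, 2085 and 797 in KEAP1-deficient pups, and 1.78, 4.45 and 12.0 in wild type. It rose by 5.57 on the log2 scale in homozygotes (SE 0.62, adjusted p = 0.00021) and by 7.46 in KEAP1-deficient pups (SE 0.62, adjusted p = 2.5e-05). Sprr1a (ENSMUSG00000050359) was already expressed in wild type, with 12314, 14468 and 15398 normalised counts in homozygotes, 17582, 29856 and 19699 in KEAP1-deficient pups, and 1975, 2675 and 2855 in wild type. No groups overlapped for either gene. For Sprr1a the ratio of means to wild type was 5.62 in homozygotes (log2 fold change 2.50, SE 0.21, adjusted p = 2.2e-05) and 8.95 in KEAP1-deficient pups (3.14, SE 0.21, adjusted p = 3.4e-06).

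Sprr3 (ENSMUSG00000045539) had 15935, 18175 and 17806 normalised counts in homozygous pups, 21108, 32284 and 24735 in KEAP1-deficient pups, and 1836, 3683 and 4240 in wild type. The lowest homozygote library was above the highest wild-type library by a wide margin. The mean was 5.32-fold that of wild type in homozygotes (log2 fold change 2.50, SE 0.30, adjusted p = 0.00035) and 8.01-fold in KEAP1-deficient pups (3.07, SE 0.30, adjusted p = 7e-05).

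Between the mutant pups themselves, no member was called by limma (4.17% of genes were, 1.76% higher and 2.4% lower in homozygotes); at an unadjusted p under 0.05, Sprr1a and Sprr1b were lower and Sprr2b was higher in homozygotes. Sprr1a averaged 14060 in homozygotes and 22379 in KEAP1-deficient pups (log2 difference -0.64, 95% interval -1.11 to -0.16, adjusted p = 0.12), and Sprr1b 284 in homozygotes and 1175 in KEAP1-deficient pups (-1.89, interval -3.31 to -0.46, adjusted p = 0.12). Sprr2b averaged 2861 in homozygotes and 1515 in KEAP1-deficient pups (0.91, interval 0.13 to 1.70, adjusted p = 0.16). The groups of these 3 genes and of Sprr3 did not overlap. For Sprr2d, Sprr2e and Sprr2f the differences were 0.07, 0.00 and 0.09. Their intervals were -0.62 to 0.76, -0.83 to 0.84 and -0.68 to 0.87, so differences within these intervals were not excluded. Within each mutant group a single library was the highest for all 5 Sprr2 members, replicate 3 of the homozygotes and replicate 2 of the KEAP1-deficient pups.

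Squamous markers also changed, though not all in 1 direction. Basal markers summed to 59085 to 66940 normalised counts in homozygotes, which overlapped wild type, 64299 to 79426 in KEAP1-deficient pups and 32941 to 60548 in wild type; 3 of 4 were called higher in each mutant, while Krt15 fell by 2.50 in homozygotes and by 2.92 in KEAP1-deficient pups on the log2 scale. Suprabasal markers summed to 187031 to 221045 in homozygotes, 263450 to 289250 in KEAP1-deficient pups and 116552 to 124576 in wild type, with 3 of 4 called higher and 1 lower in each mutant; the lower one in homozygotes was Krt4 (-2.12). The sum of the 5 fibroblast markers moved the other way, with 85540 to 128052 in homozygotes, 56784 to 110301 in KEAP1-deficient pups and 272870 to 288902 in wild type. Of these markers 4 were called lower and none higher in each mutant. Among pup libraries, thyroid and airway markers reached 32280 in a homozygote library and glandular stomach markers 6766 in a KEAP1-deficient one, against up to 134 and 409 in wild type. The part of these shifts in the SPRR values was not tested. In whole tissue, fewer cells of a type and less RNA per cell cannot be told apart.

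In adults the members split. The Sprr2 members rose in homozygotes and KEAP1-deficient mice, Sprr3 fell in all mutant genotypes, and the SPRR1 genes differed by genotype. In heterozygotes no member was higher and 1 was lower, Sprr3 (4.8% of 19857 genes were higher and 4.9% lower, 9.7% in all); at an unadjusted p under 0.05 Sprr2h was also higher and Sprr1a lower. In L30F homozygotes 5 members were higher and 2 lower (11.8% and 10.4% of genes, 22.3% in all). In KEAP1-deficient adults 6 were higher and 1 lower (24.1% and 22.7%, 46.8% in all). The members' median log2 fold change was 0.55 in heterozygotes, 4.77 in homozygotes and 7.81 in KEAP1-deficient adults, against medians of -0.01 to 0.01 over all genes. The 3 comparisons share the same 4 wild-type libraries.

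**Figure D2:**
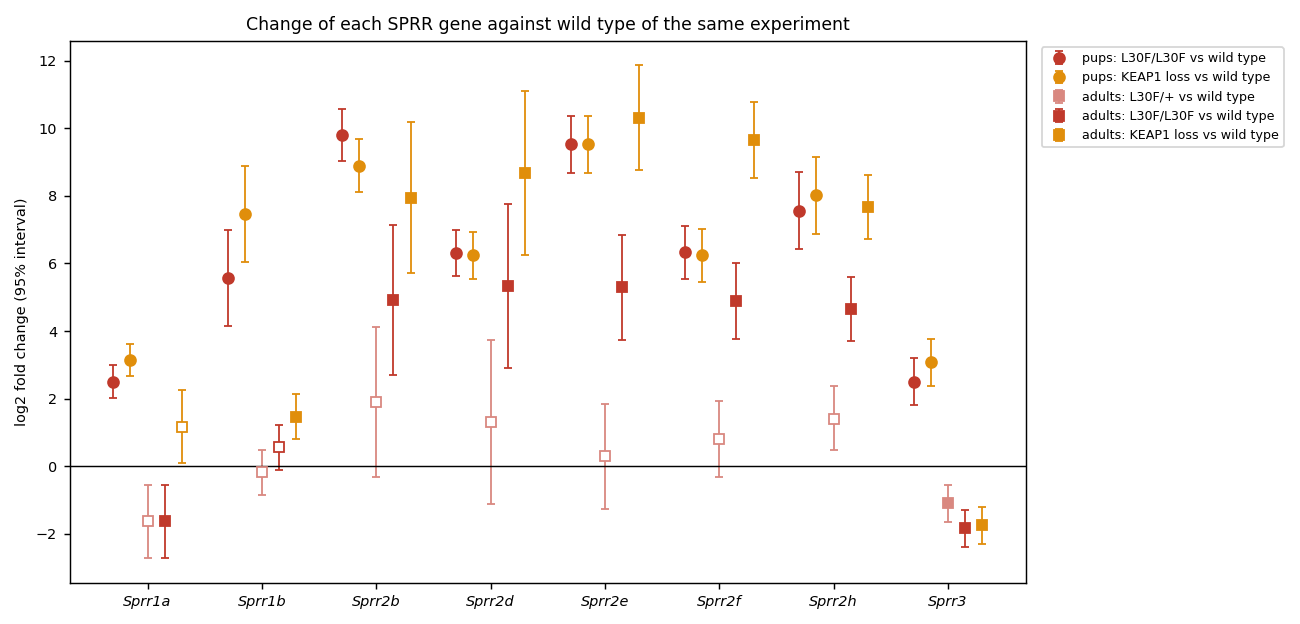
Points are log2 fold changes of each SPRR gene against wild type of the same experiment, with 95% intervals from limma; circles are pups, squares adults, and open symbols were not called. The 5 Sprr2 genes lie between 4.64 and 10.31 in homozygous and KEAP1-deficient adults, while adult Sprr3 lies between -1.84 and -1.10.

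Sprr2e had 2.44, 10.0, 4.84 and 0 normalised counts in adult heterozygotes, 150, 128, 388 and 29.6 in homozygotes, 4773, 3217, 2950 and 5656 in KEAP1-deficient adults, and 1.35, 5.22, 1.24 and 2.02 in wild type. Heterozygote and wild-type libraries overlapped, and both lay below every homozygote library, which lay below every KEAP1-deficient library. From 16 wild-type reads, the ratio was 70.7 in homozygotes (95% counting interval 43.1 to 125) and 1660 in KEAP1-deficient adults (1020 to 2910). The log2 fold change was 5.29 in homozygotes (SE 0.73, adjusted p = 0.00019) and 10.31 in KEAP1-deficient adults (SE 0.73, adjusted p = 4.7e-08).

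Sprr2f showed the same order. It had 13.4, 20.1, 18.2 and 10.4 normalised counts in heterozygotes, 276, 366, 741 and 73.2 in homozygotes, 9787, 5424, 5418 and 10463 in KEAP1-deficient adults, and 6.77, 5.22, 8.71 and 14.1 in wild type. Its log2 fold change was 4.90 in homozygotes (SE 0.53, adjusted p = 2.4e-05), and reached 9.66 in KEAP1-deficient adults (SE 0.53, adjusted p = 4.1e-09). The heterozygote difference was 0.81 (SE 0.53, adjusted p = 0.36).

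Sprr2h had 32.9, 58.7, 64.2 and 19.3 normalised counts in heterozygotes, 347, 451, 645 and 202 in homozygotes, 3387, 2453, 2633 and 4260 in KEAP1-deficient adults, and 12.2, 6.96, 15.6 and 29.6 in wild type. In heterozygotes the lowest library fell within the wild-type range and the other 3 were above it (log2 difference 1.41, SE 0.44, adjusted p = 0.057). That difference was called without wild-type replicate 4 (1.75, adjusted p = 0.019), heterozygote replicate 4 (1.75, adjusted p = 0.023) or homozygote replicate 4 (1.41, adjusted p = 0.044). The rise was 25.6-fold in homozygotes (adjusted p = 6.4e-06) and 198-fold in KEAP1-deficient adults (adjusted p = 6.6e-09).

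Sprr2d and Sprr2b were more uneven within groups. Sprr2d had 31.7, 509, 338 and 26.7 normalised counts in heterozygotes, 2161, 2651, 6686 and 300 in homozygotes, 18946, 14229, 17749 and 24608 in KEAP1-deficient adults, and 22.4, 27.8, 26.8 and 227 in wild type. Of the wild-type libraries, 3 were close together and replicate 4 stood above them, and among heterozygotes 2 libraries were high and 2 near wild type. Sprr2b had 32.9, 305, 132 and 20.7 in heterozygotes, 514, 1002, 1807 and 134 in homozygotes, 4875, 3742, 3879 and 7906 in KEAP1-deficient adults, and 4.06, 24.9, 10.6 and 98.1 in wild type. The log2 fold change of Sprr2d was 5.34 in homozygotes and 8.67 in KEAP1-deficient adults (SE 1.12 each, adjusted p = 0.0049 and 3.1e-05), and that of Sprr2b 4.92 in homozygotes and 7.95 in KEAP1-deficient adults (SE 1.03 each, adjusted p = 0.0046 and 2.9e-05). With the striated muscle markers as a covariate, the KEAP1 rise of Sprr2d was 6.27 and was not called (adjusted p = 0.072).

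The libraries ranked alike across the Sprr2 genes. Homozygote replicate 3 was the highest and replicate 4 the lowest of its group for all 5, and KEAP1-deficient replicate 4 was the highest for all 5. Wild-type replicate 4 was the highest of wild type for 4 of 5 (all but Sprr2e), and the lowest for Sprr1a, Sprr1b and Sprr3. Heterozygote replicate 2 was the highest for 4 of 5 (all but Sprr2h), and it too was the lowest for Sprr1a, Sprr1b and Sprr3. Different members measured in a library are therefore not replicates of one another.

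Sprr1b was called higher in KEAP1-deficient adults and in neither L30F genotype. It had 1450.0, 695, 942 and 947 normalised counts in heterozygotes, 1663, 1585, 1099 and 2345 in homozygotes, 3393, 2415, 2431 and 4247 in KEAP1-deficient adults, and 1291, 1160, 1621 and 597 in wild type. Every KEAP1-deficient library was above every wild-type library, while the other genotypes overlapped wild type. The log2 fold change was 1.47 in KEAP1-deficient adults (SE 0.31, adjusted p = 0.0013), against 0.56 in homozygotes (SE 0.31, adjusted p = 0.22) and -0.17 in heterozygotes (SE 0.31, adjusted p = 0.78).

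Sprr1a was called lower in homozygotes, while its KEAP1-deficient libraries lay above wild type. It had 3473, 469, 2255 and 791 normalised counts in heterozygotes, 1371, 1295, 1585 and 1034 in homozygotes, 11463, 6803, 7312 and 12019 in KEAP1-deficient adults, and 4674, 3859, 6028 and 2489 in wild type. Every homozygote library was below every wild-type library, while heterozygotes overlapped wild type. Sprr1a fell by 1.63 on the log2 scale in homozygotes (SE 0.50, adjusted p = 0.033), a call that ended without any 1 of wild-type replicates 1, 2 and 3 (adjusted p = 0.082, 0.065 and 0.093) or homozygote replicates 1, 2 and 4 (0.06, 0.06 and 0.071), and with the muscle covariate (0.055). In KEAP1-deficient adults the mean was 2.21-fold that of wild type, which was not called (log2 fold change 1.17, 95% interval 0.08 to 2.25, adjusted p = 0.074). It was called when only those 2 groups were fitted (adjusted p = 0.01), without heterozygote replicate 1 (0.031) or without heterozygote replicate 2 (0.028). In heterozygotes the same log2 difference of -1.63 was not called (adjusted p = 0.057); it was called without heterozygote replicate 1 or 3 (adjusted p = 0.015 and 0.048) or wild-type replicate 4 (0.041).

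Sprr3 was the member that fell in every adult genotype. It had 20296, 8972, 16970 and 17888 normalised counts in heterozygotes, 8648, 9156, 10813 and 8196 in homozygotes, 12473, 6589, 9023 and 12124 in KEAP1-deficient adults, and 38014, 32190, 40582 and 23360 in wild type. The lowest wild-type library was above every mutant library. The mean was 3.64-fold lower than wild type in homozygotes (log2 fold change -1.84, SE 0.25, adjusted p = 0.00018) and 3.34-fold lower in KEAP1-deficient adults (-1.75, SE 0.25, adjusted p = 4.4e-05). In heterozygotes it was 2.09-fold lower (-1.10, SE 0.25, adjusted p = 0.016), a call that ended without wild-type replicate 1 (adjusted p = 0.062) or 3 (0.052), with only the 2 groups fitted (0.052) and with the muscle covariate (0.083).

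The make-up of these 8 members followed. As a share of the summed normalised counts of the 8 genes, which are not scaled to gene length, the 5 Sprr2 genes made up 0.391 to 8.18% in heterozygotes, 6.0 to 43.2% in homozygotes, 60.4 to 65.1% in KEAP1-deficient adults and 0.106 to 1.38% in wild type. Sprr3 made up 14.7 to 18.1% in KEAP1-deficient adults and 84.0 to 87.1% in wild type. In pups the Sprr2 share was 28.1 to 39.3% in homozygotes, 21.2 to 25.6% in KEAP1-deficient mice and 1.91 to 3.93% in wild type. Sprr2a1, Sprr2a2 and Sprr2a3 are not in these sums. Together they averaged 16419 normalised counts in wild-type pups, where the 8 genes summed to 3968 to 7246. In wild-type adults they averaged 15347, and the 8 genes summed to 26816 to 48294. The shares therefore describe the 8 genes and not all SPRR transcripts.

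**Figure D3:**
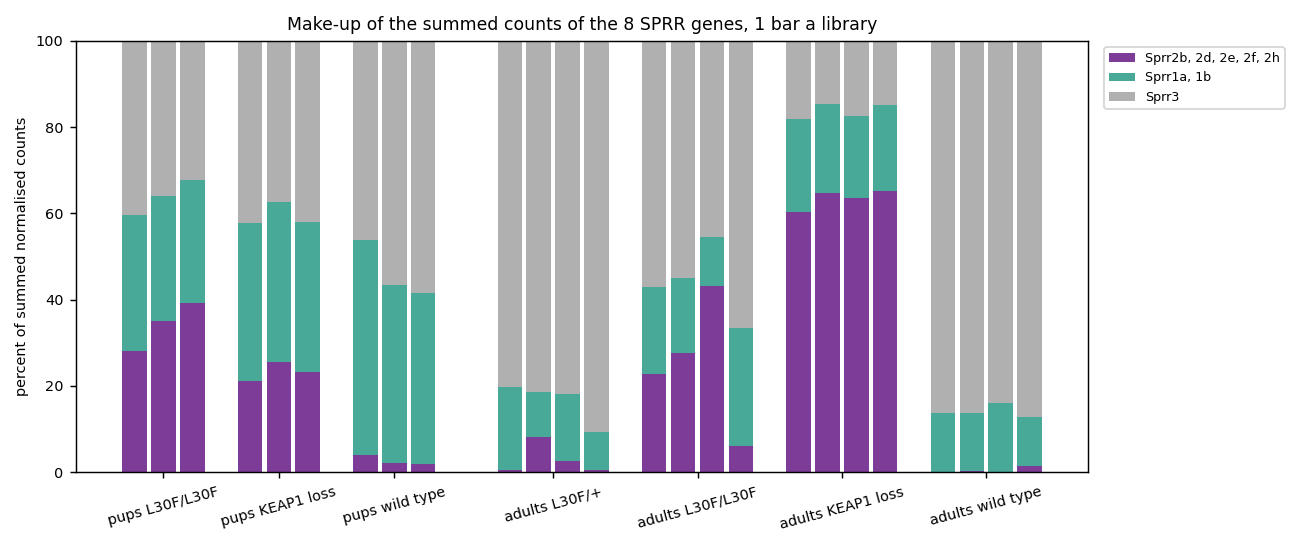
Each bar is 1 library. It shows what percent of the summed normalised counts of the 8 SPRR genes came from the Sprr2 members, from Sprr1a and Sprr1b, and from Sprr3. The Sprr2a genes are not included. The Sprr2 part is 60.4 to 65.1% in KEAP1-deficient adults and at most 1.38% in adult wild type.

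Homozygotes were next set against KEAP1-deficient adults. In homozygotes 7 of 8 members were lower than in KEAP1-deficient adults and none was higher (13.5% of genes were lower, 12.9% higher, 26.4% in all); Sprr3 was not called (-0.09, 95% interval -0.63 to 0.45). For the 7 the groups did not overlap. Sprr2e averaged 174 ± 152 in homozygotes and 4149 ± 1287 in KEAP1-deficient adults (SD, n = 4 each; log2 difference -5.02, SE 0.73, limma adjusted p = 0.00017), and Sprr2f 364 ± 280 in homozygotes and 7773 ± 2730 in KEAP1-deficient adults (-4.76, SE 0.53, limma adjusted p = 1.8e-05). Sprr2h and Sprr1a differed by -3.04 and -2.80 (adjusted p = 0.00017 and 0.0011). Sprr1b, Sprr2b and Sprr2d were called narrowly (adjusted p = 0.044 to 0.045), and each lost its call when 1 of several libraries was left out, which brought the count to as few as 4. With striated muscle markers as a covariate none was called, and the Sprr2d difference was -0.51; those markers summed to 871477 to 1233775 in homozygotes and 322917 to 497142 in KEAP1-deficient adults, so the covariate and the genotype cannot be told apart.

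The homozygote was set against the heterozygote to compare copies of the mutant allele. In homozygotes 4 members were higher and none lower (8.07% and 8.29% of genes, 16.4% in all): Sprr2e (40.2-fold), Sprr2f (23.5-fold), Sprr2d (13.0-fold) and Sprr2h (9.40-fold). Sprr2e, Sprr2f and Sprr2h did not overlap between the groups, with adjusted p = 0.00059, 0.00024 and 0.00038; the Sprr2e call ended with limma-voom on recovered reads (5.20, adjusted p = 0.058). The Sprr2d call (adjusted p = 0.027) ended without any 1 of heterozygote replicates 1 and 4 or homozygote replicates 1, 2 and 3, when only the 2 groups were fitted (0.15) and with the muscle covariate (0.057). Sprr2b averaged 864 ± 722 in homozygotes and 123 ± 132 in heterozygotes (SD, n = 4 each), which was not called (limma adjusted p = 0.063) but was without heterozygote replicate 2 (0.029), homozygote replicate 4 (0.026) or wild-type replicate 4 (0.044). Heterozygotes also lay below the log2 midpoint of homozygotes and wild type for Sprr2e (-2.35, adjusted p = 0.031) and Sprr2f (-1.64, adjusted p = 0.037), with 3.95% of genes called below it and 5.03% above (8.97% in all); both calls ended without 1 of several libraries. Against KEAP1-deficient adults, heterozygotes were lower in 7 members and higher in Sprr3 (23.2% of genes lower and 21.6% higher, 44.8% in all); the Sprr3 call (0.65, adjusted p = 0.046) ended without any 1 of several libraries, with an adjusted p of up to 0.15 without KEAP1-deficient replicate 2.

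The order of adult levels was thus KEAP1-deficient, homozygote, heterozygote, wild type for each Sprr2 member. The lowest neighbours, heterozygote and wild type, were called different for none of these members. Homozygotes and heterozygotes were called different for all but Sprr2b. For Sprr1b the order was the same except that wild type came before heterozygotes, and no neighbours other than KEAP1-deficient and homozygote were called different. For Sprr1a it was KEAP1-deficient, wild type, heterozygote, homozygote, with no neighbours called different. For Sprr3 it was wild type, heterozygote, KEAP1-deficient, homozygote, and the lowest pair was not called different.

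Cell markers moved with the adult results. In KEAP1-deficient adults the suprabasal markers summed to 104548 to 154252 normalised counts and in wild type to 919373 to 1285847, and all 4 were called lower. Basal markers summed to 167770 to 195342 in KEAP1-deficient adults and 56316 to 73314 in wild type, but they did not move together: Krt14 averaged 115817 in KEAP1-deficient adults and 9088 in wild type, and Krt15 averaged 318 in KEAP1-deficient adults and 14306 in wild type. Striated muscle markers summed to 322917 to 497142 in KEAP1-deficient adults and 920825 to 1086691 in wild type. Leukocyte markers summed to 8134 to 10636 in KEAP1-deficient adults and 2584 to 4809 in wild type. Neutrophil markers summed to 1650 to 3297 in KEAP1-deficient adults and 194 to 434 in wild type, where Ly6g was at 0 in every library. In homozygotes the suprabasal sum was 453082 to 652617, below wild type, and the basal sum 77824 to 115881, above it, with Krt15 again lower (-1.38). Of 6 leukocyte markers 4 were called higher in homozygotes, among them Ptprc, Itgam and Csf1r, while the neutrophil sum of 188 to 480 overlapped wild type. In heterozygotes striated muscle markers summed to 1265018 to 1681559, above wild type, and suprabasal markers to 563423 to 860545, below it. Striated muscle markers entered as a covariate in alternative fits, but that covariate and the KEAP1 genotype cannot be told apart. The part of the other markers in the SPRR values was not tested.

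The change against wild type differed between adults and pups for several members. For L30F homozygotes the adult change was lower than the pup change in 6 of 8 members and higher in none (19.9% and 13.6% of 19030 genes, 33.5% in all). For KEAP1 loss it was lower in 3 and higher in 1 (26.5% and 20.6% of 19031 genes, 47.1% in all). Sprr3 gave opposite signs: -1.84 in adult homozygotes and 2.50 in homozygous pups (difference -4.34, SE 0.39, adjusted p = 5.6e-08), and -1.75 in KEAP1-deficient adults and 3.07 in KEAP1-deficient pups (difference -4.82, SE 0.39, adjusted p = 6.5e-09). Sprr1a differed by -4.14 in homozygotes and -1.97 in KEAP1-deficient mice, and Sprr1b by -5.02 in homozygotes and -5.99 in KEAP1-deficient mice.

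For homozygotes, the Sprr2 genes rose less in adults than in pups for Sprr2b (-4.88), Sprr2e (-4.24) and Sprr2h (-2.92), while Sprr2d (-0.97, 95% interval -3.45 to 1.51) and Sprr2f (-1.43, interval -2.73 to -0.14, adjusted p = 0.083) were not called. The Sprr2f difference was called with a pseudocount of 5 (-1.82, adjusted p = 0.021) or 4 (-1.74, adjusted p = 0.028), and without homozygous pup replicate 1 (adjusted p = 0.035) or adult homozygote replicate 3 (adjusted p = 0.015). With limma-voom on recovered reads only 2 of the 8 differences for homozygotes were called, while for Sprr2e it was -4.35 (adjusted p = 0.38). For KEAP1 loss, Sprr2f rose more in adults (difference 3.42, SE 0.62, adjusted p = 8.8e-05), while Sprr2b, Sprr2d, Sprr2e and Sprr2h were not called, with differences of -0.94, 2.44, 0.79 and -0.33. With the muscle covariate the Sprr2f difference was 2.45 and the Sprr1a difference -2.07, and neither was called (adjusted p = 0.11 and 0.17). Wild-type levels enter these differences: Sprr1b averaged 1167 ± 427 in adult wild type and 6.07 ± 5.29 in pup wild type, in tables that were normalized separately.

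The near-identical Sprr2a genes were looked at beside the members. The transcripts of Sprr2a1 and Sprr2a2 share 96.9% and 97.8% of their 31-base words with other genes, and Sprr2a3 73.6%, so their reads cannot be apportioned with certainty. The 3 were therefore summed. The sum averaged 25806 ± 6167 in homozygous pups, 29207 ± 2842 in KEAP1-deficient pups and 16419 ± 138 in wild-type pups (SD, n = 3 each). In adults it was 9549 ± 5769 in heterozygotes, 28116 ± 17183 in homozygotes, 52291 ± 5378 in KEAP1-deficient mice and 15347 ± 6115 in wild type (SD, n = 4 each). Every mutant pup sum was above the wild-type ones. Taken singly, Sprr2a3 was called lower in homozygous pups (log2 fold change -2.15, limma adjusted p = 0.023) and KEAP1-deficient pups (-3.0, limma adjusted p = 0.0039). Sprr2a2 was called higher in both (0.7 and 0.91), and Sprr2a1 was called in neither (0.01 and 0.39). In adults the heterozygote and homozygote sums overlapped the wild-type range of 9763 to 23294, while the KEAP1-deficient sums, 46687 to 57951, were above it. The RefSeq windows of these 3 genes held none of the 3 motifs.

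Of the other Sprr rows, Sprr2i rose like the members, by 8.06 on the log2 scale in homozygous pups, 8.98 in KEAP1-deficient pups, 4.12 in adult homozygotes and 7.92 in KEAP1-deficient adults. It shares 17.7% of its 31-base words with Sprr2e. The annotated pseudogenes Sprr2g and Sprr2j-ps also rose in pups, Sprr2g by 6.65 in homozygotes and 6.29 in KEAP1-deficient mice and Sprr2j-ps by 7.28 in homozygotes and 8.27 in KEAP1-deficient mice. A row for Sprr2g was used for pups and not for adults. In adults Sprr2j-ps rose by 0.93 in homozygotes and by 3.49 in KEAP1-deficient mice. Sprr2k, with both the TGANTCA and the octamer motif in its window, rose by 1.78 in KEAP1-deficient adults and fell by 1.53 in adult homozygotes. In pups it rose by 2.03 with KEAP1 loss, and its difference of 0.92 in homozygotes was not called. Its pup values were near the floor, with means of 0.58 normalised counts in wild type, 6.3 with KEAP1 loss and 1.99 in homozygotes.

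The surrounding genes of the complex separated from the Sprr2 genes in adults. Within 500 kb of the members on chromosome 3 there were 30 tested genes that are not Sprr genes. In pups 27 of the 30 were higher in homozygotes (22.0% of all genes) and 28 in KEAP1-deficient mice (26.3%). None was lower in either (17.1% and 23.2% of all genes). In adults 2 were higher and 10 lower in homozygotes (11.8% and 10.4% of all genes). In KEAP1-deficient adults 2 were higher and 21 lower (24.1% and 22.7% of all genes), and the median of the 30 was -1.19, against 7.81 for the members. Lor averaged 2733 in KEAP1-deficient adults and 36068 in wild type (log2 fold change -3.79, SE 0.39, adjusted p = 2.1e-06), and Lce3f 1336 in KEAP1-deficient adults and 7669 in wild type (-2.56, SE 0.27). In KEAP1-deficient pups Lce3d, Lce1g and Lce1f rose by 10.22, 9.85 and 9.43. The neighbours were counted from the RefSeq gene order on GRCm38.p6.

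**Figure D4:**
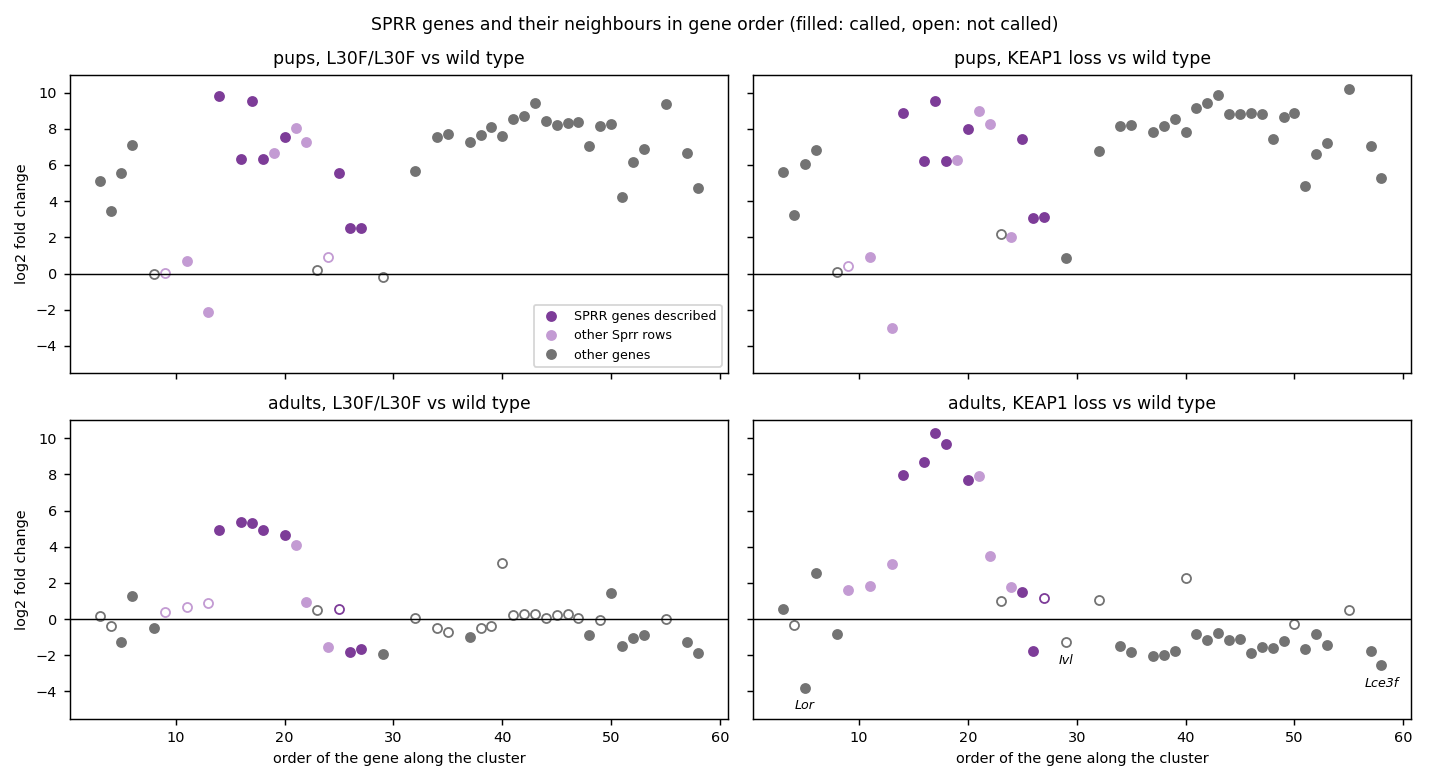
Each point is the log2 fold change of a gene against wild type, placed by its order along the cluster; purple marks the SPRR genes, pale purple the other Sprr rows and grey the other genes, and open points were not called. In pups nearly the whole stretch lies above 0, while in KEAP1-deficient adults the Sprr2 genes reach 10.31 and Lor is at -3.79.

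Other cornified envelope partners, a list of 22 genes of which 21 were tested, were counted in the same way. The list overlaps the sets above, since it includes Lor, a neighbour, and Tgm3, a suprabasal marker. In pups 17 were higher in homozygotes (22.0% of all genes) and 19 in KEAP1-deficient mice (26.3%). None was lower in either (17.1% and 23.2% of all genes). Repetin (Rptn), a matrix protein of the envelope, rose by 6.88 in homozygotes and 7.47 in KEAP1-deficient pups, and corneodesmosin (Cdsn), an adhesion protein of cornified cells, by 5.96 and 6.48 in the same groups. In adults 1 was higher and 3 lower in heterozygotes (4.8% and 4.9% of all genes), and 3 higher and 10 lower in homozygotes (11.8% and 10.4%). In KEAP1-deficient adults 5 were higher and 11 lower, where 24.1% of all genes were higher and 22.7% lower. Trichohyalin (Tchh), a keratin-binding protein, rose by 5.99 in KEAP1-deficient adults, while filaggrin (Flg), which bundles keratin, fell by 5.39. The list was chosen with earlier results of these data known.

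Among 23 regulators of squamous differentiation, 16 were higher and 2 lower in homozygous pups (22.0% and 17.1% of all genes), and 18 higher and 2 lower in KEAP1-deficient pups (26.3% and 23.2% of all genes). Fosl1, which encodes the AP-1 subunit FRA-1, rose by 6.04 on the log2 scale in homozygotes and 6.76 in KEAP1-deficient pups, and Prdm1, a repressor expressed in differentiating epithelium, by 3.33 and 3.67 in the same groups. In adults 1 was higher and 9 lower in heterozygotes (4.8% and 4.9% of all genes), and none higher and 7 lower in homozygotes (11.8% and 10.4%). In KEAP1-deficient adults 5 were higher and 7 lower, near the 24.1% and 22.7% of all genes. These counts include Nfe2l2, the gene mutated in the L30F mice. It was called lower in heterozygotes (-0.67), adult homozygotes (-1.98) and KEAP1-deficient adults (-0.39), and higher in KEAP1-deficient pups (0.93). Fosl1 rose by 3.14 in KEAP1-deficient adults (adjusted p = 0.005) and Junb, another AP-1 subunit, by 1.00, while Pou2f3, a POU factor of epithelia, fell by 1.42. Other AP-1 genes were called lower: Fosb in adult homozygotes (-2.05, limma adjusted p = 0.0048) and Fos in heterozygotes (-1.34, limma adjusted p = 0.026). These are levels of transcripts, and no binding was measured.

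The genes whose pattern lay closest to each member were found by the root-mean-square difference of log2(normalised count + 1), centred on wild type, over 25 libraries and 13482 genes. Sprr2i was closest to Sprr2h (0.63), Sprr2b (0.95) and Sprr2e (1.39), and Defb3 was the next for each. S100a8 and S100a9 were closest to Sprr2d (1.03 each), and S100a9 (1.04) and Defb3 (1.08) to Sprr2f. Tmigd1 (0.63) and Klk13 (0.67) were closest to Sprr1a, Il1f6 (0.60) and Gpx2 (0.71) to Sprr1b, and Otub2 (0.43) and Eps8l1 (0.45) to Sprr3. The members' own root-mean-square distance from wild type ran from 1.79 for Sprr3 to 6.63 for Sprr2e.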

How the data were processed

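Whole-esophagus RNA libraries (25, in 7 groups) were made with a directional kit, per the labels' protocols. Reads were quantified with Salmon on GRCm39, per the submitters' processing notes. No version of either is given in those notes. The deposited values are log2 values, 1 table per experiment, each log2(n + 4), where n is reads over a library size factor, as read from the values themselves. The lowest value is 2, and all values up to 1000 reads lay within 0.1 of a whole read. They were converted back to normalised counts. Genes reaching 1 normalised count in at least the number of libraries of the smallest group were fitted with limma (3.58.1, with statmod 1.5.0, R 4.3.3; trend, robust) on log2(normalised count + 1), all groups of an experiment together. Adult and pup changes were compared by their difference over its standard error (Welch-Satterthwaite). All p-values were adjusted by Benjamini-Hochberg over all genes. The fits were also run on simulated data with the same spread setting for all genes, which does not check them at the spread of the uneven members. The reads given here are whole numbers recovered from the deposited values after Salmon quantification. Intervals from them are exact and cover counting error only, not the assignment of reads among like transcripts.

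Alternatives were pseudocounts of 0.1 and 5, no filter, TMM scaling, limma-voom on recovered reads, thinning to equal depth, fits of the compared groups alone, covariates for striated muscle markers or for Ddx3y, a block for replicate number, and dropping each library; a pseudocount of 4 was added after seeing the data. The members and lists were chosen with earlier results of these data known. Named besides the members were Nqo1, Keap1 and Nfe2l2, the other Sprr rows, 2 genes of like pattern per member, and, from lists and neighbours, up to 3 called genes per comparison with the largest change and a mean of at least 50. Some of these are not printed.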

Additional observations from a re-analysis of the deposited data

Results flagged for a closer look

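In adult wild type, Sprr2d stood at 227 normalised counts in replicate 4, far above the other 3 libraries (22.4 to 27.8), with a gap of 0.908 of the group's range on the log2 scale. This was 1 of 32 member and group combinations examined, of which chance flags about 1 in 20. Without that library the Sprr2d difference between adult and pup KEAP1 loss was 3.21 and was called (adjusted p = 0.035, limma fits).

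Differences between the adult and the pup change against wild type were called, by a test of the difference itself, for 10 results. For L30F homozygotes these were Sprr1a (-4.14), Sprr1b (-5.02), Sprr2b (-4.88), Sprr2e (-4.24), Sprr2h (-2.92) and Sprr3 (-4.34). For KEAP1 loss they were Sprr1a (-1.97), Sprr1b (-5.99), Sprr2f (3.42) and Sprr3 (-4.82). Over all genes 33.5% were called for homozygotes and 47.1% for KEAP1 loss. The 4 of 8 members called for KEAP1 loss are near the share of all genes.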

How the results depend on the processing

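Leaving out each library in turn gave 8 members called in both pup comparisons with wild type, 6 to 7 for adult homozygotes, 7 to 8 for adult KEAP1 loss, 0 to 3 for heterozygotes (1 with all libraries), 3 to 6 for homozygotes against heterozygotes (4), 4 to 7 for homozygotes against KEAP1 loss (7), 7 to 8 for heterozygotes against KEAP1 loss, 0 to 2 for the midpoint (2), 6 to 7 for the homozygote difference of adults and pups and 4 to 5 for that of KEAP1 loss. For heterozygotes the count was 2 after thinning, 0 with only the groups compared and 0 with the muscle covariate. For the midpoint it was 1 with a pseudocount of 0.1, and 0 with limma-voom, thinning, the muscle covariate or the Ddx3y covariate. The muscle covariate gave 0 for homozygotes against KEAP1 loss, 4 for heterozygotes against KEAP1 loss (8) and 2 for the KEAP1 difference of adults and pups (4). Limma-voom gave 2 for the homozygote difference of adults and pups (6). The cause of these shifts was not tested. The share of all genes called in each alternative fit is not given here. These counts therefore do not show whether the members shifted more than other genes.

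Same-numbered libraries did not deviate together (correlation over 0.1 in 1 of 9 pup and 2 of 24 adult pairs). With a replicate block the counts were 2 for heterozygotes, 4 for homozygotes against KEAP1 loss and 1 for the midpoint, and elsewhere within 1.5 times.

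Signs turned in differences that were not called. Sprr2e in heterozygotes was -0.20 with a pseudocount of 0.1 and -0.22 without heterozygote replicate 2; the KEAP1 difference of Sprr2h was 0.05 with a pseudocount of 5. In pups, homozygotes against KEAP1 loss gave -0.10 for Sprr2d and -0.17 for Sprr2f with the Ddx3y covariate. Ranges over fits leaving out 1 library crossed 0 for pup homozygotes against KEAP1 loss (Sprr2d -0.18 to 0.37, Sprr2f -0.17 to 0.38), heterozygotes against wild type (Sprr1b -0.46 to 0.02, Sprr2e -0.22 to 0.94), the midpoint (Sprr2b -1.23 to 0.04, Sprr3 -0.31 to 0.08), adult homozygotes against KEAP1 loss (Sprr3 -0.28 to 0.03) and the KEAP1 difference of adults and pups (Sprr2h -0.72 to 0.05).

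A limit of fewer than 10 reads in wild type holds for Sprr2b and Sprr2e in pups, whose folds carry wide counting intervals. The midpoint could not be fitted with only the groups compared.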
